A study of Mus musculus with 11 samples.

Results

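The serpins are a family of proteins that share one fold, and most of them inhibit serine proteases. A protease cuts an exposed loop of the serpin and is then trapped by a large change in its shape. Some members have lost this activity and carry hormones or fold collagen instead. Many clade A serpins and several members of clades D to G are made by hepatocytes and secreted into the blood, where they restrain clotting, fibrinolysis, complement and the proteases of neutrophils, while clade B serpins mostly stay inside cells. The members described here are all genes of the array whose symbol begins with Serpin, a clade letter and a number. They comprise 53 of the 27962 genes on the array and were measured by 71 probes, with 20 genes in clade A, 24 in clade B and 9 in clades D to I.

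Normal mouse liver was profiled at embryonic day 14 (E14, 3 arrays), embryonic day 18 (E18, 3 arrays), postnatal day 5 (P5, 2 arrays, replicates 2 and 3) and postnatal day 56 (P56, 3 arrays). Each array compared liver RNA labeled with Cy5 with a common Cy3 reference, commercial RNA from normal adult mouse liver, and every value below is log2(Cy5/Cy3), so that 0 is the level of the adult reference and only differences between stages can be compared across genes. The cell type labels read hepatoblasts at E14, immature hepatocytes at E18 and hepatocytes at P5 and P56, but the source labels name liver and the extraction text names both whole livers and isolated cells, so which of them each embryonic array holds is not settled. The labels give no strain, allele or treatment for these animals, and a replicate may be 1 animal or a pool.

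Spots well above background in Cy5 numbered 16790 to 25718 per array, and replicates correlated at 0.969 to 0.990 at E14 and E18, 0.901 at P5 and 0.827 to 0.937 at P56 across the 16695 genes tested. All 7 mature hepatocyte markers tested were higher at E18 than at E14, with array means of -4.215 to -4.003 at E14 and -1.67 to -1.54 at E18. Hepatoblast markers did not fall in this step. Of 5 tested, 3 were higher and 0 lower at E18, with array means of 2.41 to 2.52 at E14 and 3.44 to 3.63 at E18. Erythroid markers were high in the embryonic arrays whatever their cell type label. The mean of 8 erythroid markers was 3.29 to 3.43 at E14, 3.38 to 3.58 at E18, 2.78 to 3.23 at P5 and -0.25 to 0.06 at P56. In bulk RNA such as this, fewer cells of a type and less RNA per cell cannot be told apart. The arrays came from 4 scans, the first with all E14 arrays and E18 replicate 1, the second with E18 replicates 2 and 3, the third with P5 replicate 2 and the fourth with P5 replicate 3 and all P56 arrays.

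The probes of 19 clade A genes lay on chromosome 12 in a cluster of 786 kb (mm7, chr12:101122372-101908089), and Serpina7 lay on chromosome X. Clade B was divided between chromosome 1 and chromosome 13, with 12 genes on each, whereas the 9 genes of clades D to I were scattered over 7 chromosomes. Neighbours in such clusters arose by duplication and can be nearly identical, so the probes that carried the main results are shown first. They are 60 bases each, and the probe of Serpina1b joins bases that lie 1500 bases apart end to end in the genome, so it spans an intron.
Serpina1b (mm7 chr12:101224607-101226106, minus strand): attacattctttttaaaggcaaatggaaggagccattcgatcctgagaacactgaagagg
Serpina1e (mm7 chr12:101445204-101445263, minus strand): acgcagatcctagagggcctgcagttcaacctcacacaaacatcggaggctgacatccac
Serpina10 (mm7 chr12:101122372-101122431, minus strand): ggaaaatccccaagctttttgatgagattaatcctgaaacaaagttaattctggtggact
Serpinb1a (mm7 chr13:32208400-32208459, minus strand): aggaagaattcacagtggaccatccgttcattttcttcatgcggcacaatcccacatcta

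The upstream regions of 5 clade A genes are shown because these genes form 2 groups of close copies whose members moved together or apart. They are the 250 bases before an annotated RefSeq start (GRCm38.p6). For Serpina3c and Serpina3n that start is not the outermost one. Their windows reach into the annotated genes, at chr12:104146907-104153929 and chr12:104406646-104414334. The same holds for some regions counted below, such as that of Serpina5. Capitals mark matches, on either strand, to TATAAA (bound by TBP), GTTAAT (an HNF1 motif) or TTGCNNAA (C/EBP), and no matches overlap.
Serpina1b (chr12:103738190-103738439, minus strand): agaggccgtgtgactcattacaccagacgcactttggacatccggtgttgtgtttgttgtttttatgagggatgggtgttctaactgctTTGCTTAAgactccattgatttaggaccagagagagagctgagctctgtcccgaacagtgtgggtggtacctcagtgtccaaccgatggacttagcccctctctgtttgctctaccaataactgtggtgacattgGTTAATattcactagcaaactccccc
Serpina1d (chr12:103773634-103773883, minus strand): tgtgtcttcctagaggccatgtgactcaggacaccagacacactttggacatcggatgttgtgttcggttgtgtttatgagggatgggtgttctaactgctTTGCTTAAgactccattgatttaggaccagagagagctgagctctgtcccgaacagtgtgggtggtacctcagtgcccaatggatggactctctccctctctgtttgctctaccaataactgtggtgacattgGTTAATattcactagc
Serpina1e (chr12:103956898-103957147, minus strand): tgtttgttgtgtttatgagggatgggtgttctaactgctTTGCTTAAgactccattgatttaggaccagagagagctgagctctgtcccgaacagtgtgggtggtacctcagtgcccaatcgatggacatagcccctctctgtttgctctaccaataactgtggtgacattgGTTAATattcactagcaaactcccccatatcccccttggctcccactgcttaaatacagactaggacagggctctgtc
Serpina3c (chr12:104153873-104154122, minus strand): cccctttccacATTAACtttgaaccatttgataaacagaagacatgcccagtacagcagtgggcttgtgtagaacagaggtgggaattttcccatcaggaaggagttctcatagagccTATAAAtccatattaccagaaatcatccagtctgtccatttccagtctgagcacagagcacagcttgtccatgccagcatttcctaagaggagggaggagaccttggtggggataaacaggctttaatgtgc
Serpina3n (chr12:104406458-104406707, plus strand): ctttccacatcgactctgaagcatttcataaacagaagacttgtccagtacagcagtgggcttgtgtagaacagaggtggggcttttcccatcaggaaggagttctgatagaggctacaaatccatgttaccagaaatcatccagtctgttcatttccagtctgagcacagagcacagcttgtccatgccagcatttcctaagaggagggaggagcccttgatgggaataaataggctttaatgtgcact

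The Serpina1 regions are 1 sequence shifted against the annotated start, and where they overlap Serpina1b was 92.6% identical to Serpina1d and 97% identical to Serpina1e. Each of the 3 carries the same TTGCTTAA and GTTAAT. Serpina3c and Serpina3n were 92.7% identical over 247 aligned columns, yet the 2 motif matches of Serpina3c are absent from Serpina3n. Upstream regions were on hand for 43 of the 53 genes. TTGCNNAA was found in 9 of 14 clade A genes, 3 of 22 clade B genes and 0 of 7 genes of clades D to I, against 10.8% of all 27025 genes with such a region. GTTAAT was found in 5 of 14 clade A genes, 3 of 22 clade B genes and 1 of 7 genes of clades D to I, against 7.49% of all genes. The near-identical Serpina1b, Serpina1d and Serpina1e count as 3 genes for both motifs, so the clade A counts are not of independent sequences. TATAAA was found in 14 of the 43 serpins, against 14.3% of all genes. CAAAGTCCA (HNF4) and CACGTG (an E box) were found in 0 of the 43, against 0.451% and 6.86%. These matches describe the letters of the window and not binding of a factor.

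Testing required a probe whose Cy5 signal was well above background on every array of 1 stage or more, which 34 of the 53 serpins passed. They were 16 genes of clade A, 9 of clade B and all 9 of clades D to I. A gene can pass through the 1 stage where it is bright, so the tested genes do not stand for the whole family. Of the 15 clade B genes that did not pass, 10 were well above background on 0 of the 11 arrays. Serpinb9, an inhibitor of granzyme B, was above on 2 arrays and the skin serpins Serpinb12 and Serpinb13 on 0, while Serpinb9e was above on 7 arrays, never on all arrays of a stage. The 4 clade A genes that did not pass were Serpina12, Serpina1f, Serpina3a and Serpina3b, each above on at most 2 arrays.

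**Figure D1:**
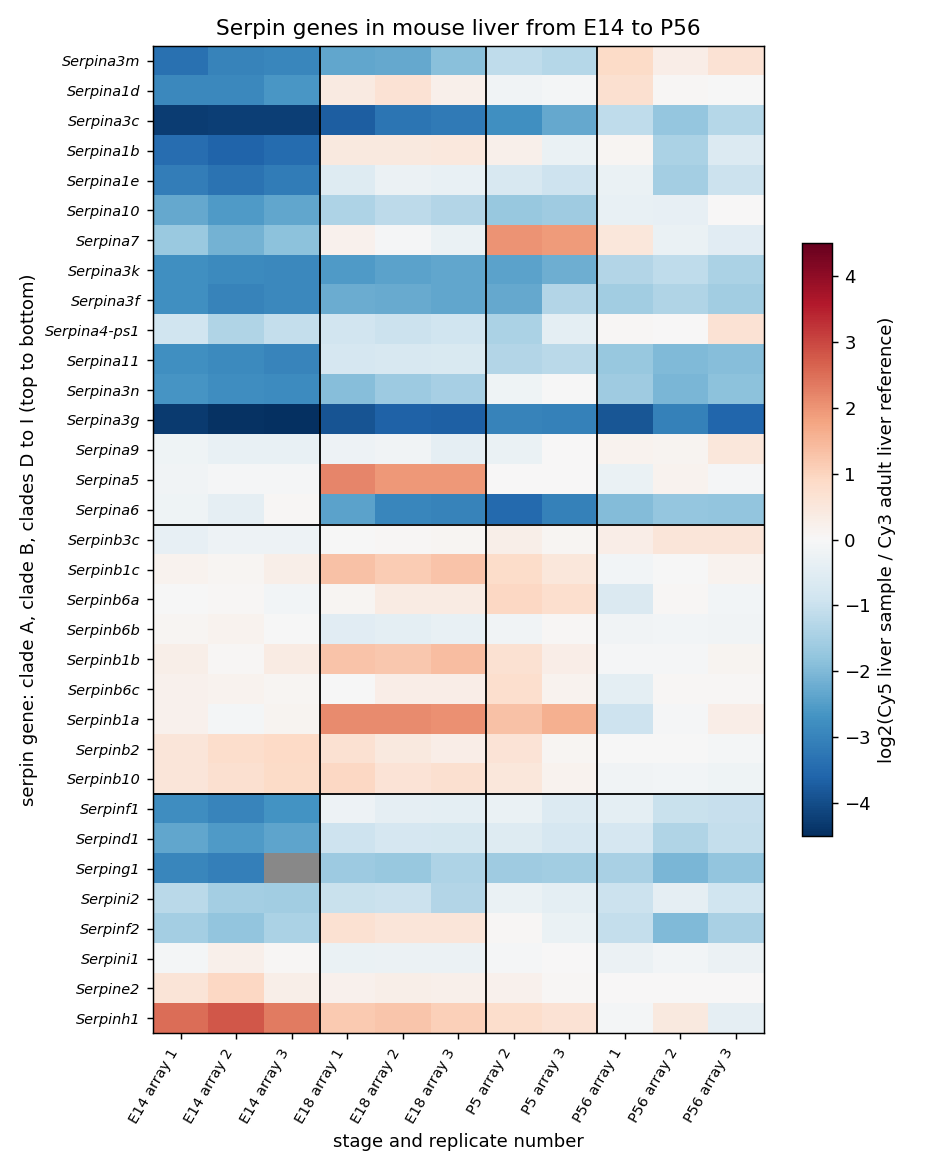
Log2(Cy5/Cy3) of 33 of the 34 serpin genes tested (rows, by clade and within each clade by P56 minus E14) on the 11 arrays (columns, by stage and replicate number), with blue below and red above the adult liver reference and grey for the missing value of Serping1. Most clade A rows are blue at E14, while Serpina6, the last clade A row, is near 0 at E14 and blue from E18 on.

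Between E14 and E18 the family rose more often than it fell. With limma and Benjamini-Hochberg adjustment over all genes, 22 of the 34 serpins were higher at E18, against 24.6% of all genes, and 5 were lower, against 22.8% of all genes. Here and below, shares of all genes belong to the main fit and are not given for other settings. When the log ratios were also scaled between arrays, these counts were 9 and 2, and without E14 replicate 2 the count lower was 3. Among the genes described below, that scaling ended the call of this step, in the same direction, for Serpina3c, Serpina3k, Serpina3m, Serpina3n, Serpina6, Serpina7, Serpina10, Serpina11, Serpinb1a, Serpind1, Serping1 and Serpinh1. A log2 fold change of at least 1 without overlap of the arrays was seen upward in 16 serpins, against 9.14% of all genes, and downward in 2, against 1.95%. In clade A 13 of 16 genes were higher and 1, Serpina6, was lower. In clade B 4 of 9 were higher and 1 lower, and in clades D to I 5 of 9 were higher and 3 lower. The median log2 fold change was 1.00 in clade A, 0.30 in clade B and 1.43 in clades D to I, against -0.01 over all genes. The E18 array scanned together with the E14 arrays gave medians of 0.796, 0.228 and 1.15.

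Fewer serpins differed between E18 and P5. There 7 were higher, against 7.32% of all genes, and 5 were lower, against 6.4%. Without P5 replicate 3 these counts were 3 and 3, without E18 replicate 3 the count higher was 4, and with scaling between arrays 0 and 1. By at least 1 on the log2 scale and without overlap, 2 were higher, against 1.73% of all genes, and 1 was lower, against 0.97%. Scan and stage cannot be told apart in this comparison, since no scan held arrays of both stages. The clade A median of 0.06 and the clade B median of -0.14 both turned sign under other scalings, and without P5 replicate 3 they were -0.14 and 0.13. Between P5 and P56 the count of serpins higher was near the share of all genes, as was the count lower in clades D to I. The genes called were spread unevenly over the clades. The 7 serpins higher at P56 all belonged to clade A, against 20.9% of all genes higher, and of the 11 lower, against 24.7%, 3 were in clade A, 6 in clade B and 2 in clades D to I. By at least 1 without overlap 6 were higher, against 5.61% of all genes, and 5 lower, against 7.86%. With median centring in place of loess 4 were higher and 19 lower, but that setting moved the median of all genes to -0.47. Without P5 replicate 2 the count lower was 7. The medians were 0.34 in clade A, -0.50 in clade B and -0.38 in clades D to I, against -0.02 over all genes. The clade A median was -0.0085 with the scanner software's processed signals and 0.12 against the P5 array of the same scan.

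From E14 to P56, the longest span, 19 serpins were higher (36.1% of all genes were) and 6 were lower (34.8% of all genes were). Those higher include Serpini2, whose probe was not well above background on any array of either stage. With median centring, which moved the median of all genes to -0.33, 13 were higher and 10 lower. With scaling between arrays the counts were 7 and 5. Among the genes with values array by array, that scaling ended this call for Serpina1e, Serpina3c, Serpina3k, Serpina3n, Serpina6, Serpina7, Serpina10, Serpina11, Serpind1 and Serping1. By at least 1 without overlap 13 were higher, against 15.1% of all genes, and 2 lower, against 14.1%. All but 2 clade A genes tested were higher. The exceptions were Serpina6, which was lower, and Serpina5, whose probe was not well above background on any array of either stage. The clade A median was 1.46, against -0.23 in clade B and 0.08 in clades D to I. Over the 4 stages together 33 of the 34 serpins differed by limma's F test, against 79.5% of all genes, Serpinb6c being the 1 that did not pass. Neighbouring comparisons share the arrays of 1 stage and are not independent of each other.

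**Figure D2:**
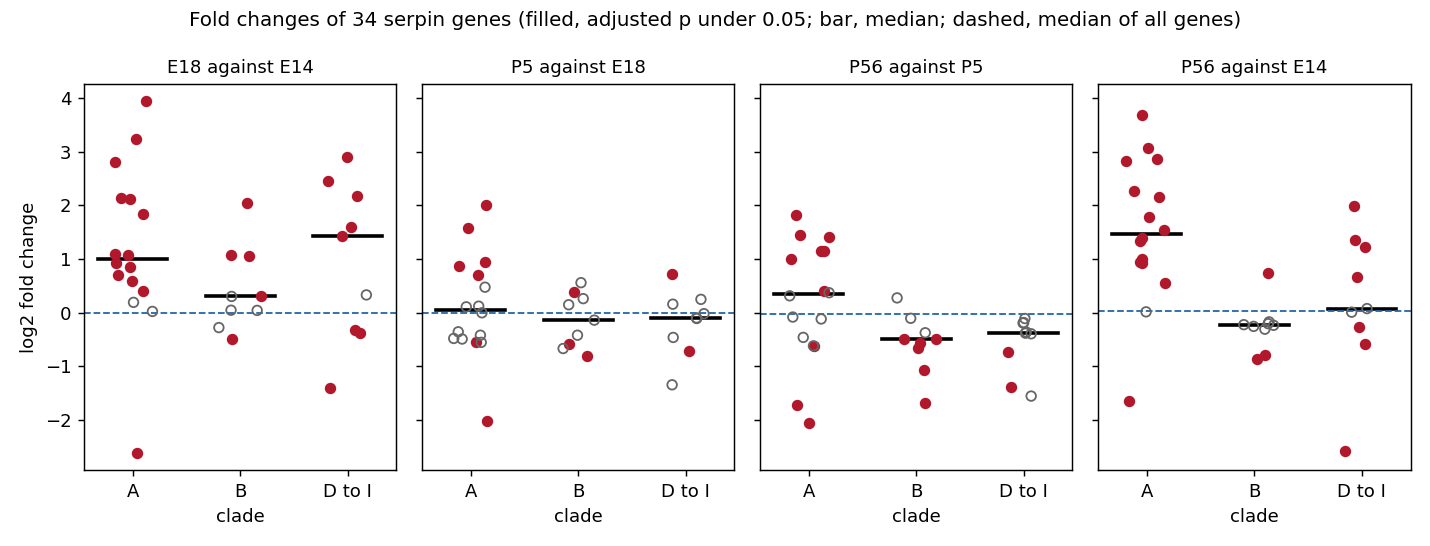
Log2 fold change (vertical axis) of each of the 34 serpin genes tested in 4 comparisons of stages, by clade (horizontal axis), with genes past an adjusted p of 0.05 filled, the clade median as a bar and the median of all genes as a dashed line. Serpina6 is the lowest clade A point in E18 against E14 and in P56 against E14, and every filled clade B point lies below 0 in P56 against P5.

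Serpina6 was the 1 clade A gene with its highest mean at E14. It encodes corticosteroid-binding globulin, the plasma carrier of glucocorticoids, which does not inhibit proteases. The gene measured -0.20, -0.42 and 0.07 at E14, then -2.41, -2.95 and -3.01 at E18, -3.51 and -3.02 at P5, and -1.94, -1.75 and -1.78 at P56. It was near the adult reference at E14, far below it late in gestation and after birth, and in between in the adult livers, with no overlap between E14 and any later stage. It fell by 2.61 on the log2 scale between E14 and E18 (6.09-fold, SE 0.18, limma adjusted p = 3.9e-07). It rose by 1.44 between P5 and P56 (2.72-fold, SE 0.20, adjusted p = 0.00015 by limma), and the P5 minus E18 difference was -0.48 (adjusted p = 0.14, limma). Within scans the changes were -2.22 for E18 against E14 and 1.20 for P56 against P5. At P56 it remained 3.12-fold below E14 (SE 0.18 on the log2 scale, limma adjusted p = 6.1e-06).

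Its neighbour on the chromosome, Serpina10, encodes the protein Z-dependent inhibitor of coagulation factor X in its active form. Among the members' probes, those of the 2 genes were adjacent in the cluster and on the same strand. Serpina10 measured -2.30, -2.54 and -2.34 at E14, -1.37, -1.18 and -1.33 at E18, -1.70 and -1.60 at P5, and -0.33, -0.37 and 0.01 at P56. Both genes were higher at P56 than at P5, but from E14 to E18 they moved in opposite directions. Serpina10 rose 2.15-fold (SE 0.12 on the log2 scale, adjusted p = 1.4e-05 by limma) and then by 1.42 from P5 to P56 (2.67-fold, SE 0.13, adjusted p = 6.3e-06 by limma). Its second probe gave 0.63 and 0.49.

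Serpina7 encodes thyroxine-binding globulin, the other hormone carrier of the clade. Its values were -1.66, -2.14 and -1.85 at E14, 0.19, -0.05 and -0.29 at E18, 2.02 and 1.90 at P5, and 0.51, -0.29 and -0.51 at P56. Both newborn arrays stood well above all others, and the P56 arrays overlapped those of E18. It rose by 1.84 between E14 and E18 (3.57-fold, SE 0.23, limma adjusted p = 4.5e-05) and by 2.01 between E18 and P5 (4.04-fold, SE 0.26, limma adjusted p = 0.00047), then fell by 2.06 between P5 and P56 (4.16-fold, SE 0.26, limma adjusted p = 5.7e-05). At E14 its probe was well above background on 1 of 3 arrays. Serpina6 and Serpina7 thus stood at opposite ends of their ranges at P5, the one at its lowest stage mean and the other at its highest.

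Of 11 genes on the hormone side of these carriers (receptors, enzymes, transporters and other carriers), 8 were higher at E18 than at E14, 5 were higher at P5 than at E18, and 4 were higher and 2 lower at P56 than at P5. Tat, a glucocorticoid-induced enzyme of tyrosine breakdown, rose 2.14-fold from E14 to E18 and 5.18-fold from E18 to P5. Dio1, which activates thyroid hormone, rose by 2.26 on the log2 scale from E18 to P5 and by 2.68 from P5 to P56. Agt encodes angiotensinogen, a member of the serpin family by structure though not by symbol. It peaked at P5 as Serpina7 did, with a rise of 1.99 from E18 and a fall to P56 of 2.27 (limma adjusted p = 1.3e-07).

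The alpha-1-antitrypsin paralogs rose steeply between E14 and E18. Their human counterpart protects tissue from neutrophil elastase. Serpina1b measured -3.41, -3.61 and -3.45 at E14, 0.43, 0.44 and 0.48 at E18, 0.21 and -0.29 at P5, and 0.09, -1.44 and -0.62 at P56. It rose by 3.94 between E14 and E18 (15.4-fold, SE 0.29, limma adjusted p = 5.2e-07), and no later step passed the test. The 3 P56 arrays were widely spread, and without P56 replicate 1 the fall from P5 to P56 was 0.99 and passed (adjusted p = 0.0045, limma).

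Serpina1d measured -2.90, -2.91 and -2.63 at E14, 0.41, 0.65 and 0.22 at E18, -0.15 and -0.09 at P5, and 0.72, 0.06 and -0.03 at P56. Serpina1e measured -3.12, -3.31 and -3.16 at E14, -0.57, -0.28 and -0.35 at E18, -0.71 and -0.92 at P5, and -0.29, -1.53 and -0.97 at P56. All 3 paralogs were low on every E14 array and at E18 had means above their P56 means. The rise from E14 was 9.45-fold for Serpina1d (limma adjusted p = 6.1e-08) and 6.98-fold for Serpina1e (limma adjusted p = 1.7e-06). The Serpina1d probe was saturated in Cy5 on 3 arrays and in Cy3 on 6, which can compress its ratios. Whether probes of such close copies bind each other's transcripts was not tested.

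Serpina11 and Serpina5 also peaked at E18. Serpina11, which lies beside Serpina1e, measured -2.75, -2.88 and -2.97 at E14, -0.77, -0.71 and -0.70 at E18, -1.32 and -1.20 at P5, and -1.71, -2.00 and -1.91 at P56. Its arrays did not overlap between any neighbouring stages. It rose by 2.14 (4.41-fold, SE 0.10, limma adjusted p = 2e-08), then fell by 0.54 and by 0.61 (adjusted p = 0.0094 and 0.00094, limma), the last of which became 0.08 with scaling between arrays. The fall from E18 to P5 did not pass with median centring (-0.35, limma adjusted p = 0.38), scaling between arrays, processed signals or in the authors' table (limma adjusted p = 0.21).

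Serpina5 encodes protein C inhibitor. It measured -0.17, -0.04 and -0.06 at E14, 2.18, 1.97 and 1.94 at E18, 0.01 and 0.00 at P5, and -0.30, 0.15 and -0.06 at P56. It stood out at E18 alone, the only stage through which its probe passed the filter. The adjusted p values of its steps to and from E18 are therefore not separate support for a peak there. The probe was not well above background on any E14 or P56 array, so E18 against E14 is given as a bound from Cy5 alone, at least 4.68-fold. Here and below such a bound is on the Cy5 scale and can exceed the difference of the ratios, to which the adjusted p belongs and which was 2.12 (limma adjusted p = 6e-08). The fall to P5, where the probe was well above background on 1 of 2 arrays, was 2.02 (4.06-fold, SE 0.13, limma adjusted p = 4.8e-06). A dimmer second probe gave 0.46 and -0.46 for these steps, the same directions with much smaller changes. Among target proteases, Proc, the gene of protein C, rose by 2.72 from E14 to E18 and did not return, with P5 minus E18 at -0.24 (adjusted p = 0.43, limma).

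**Figure D3:**
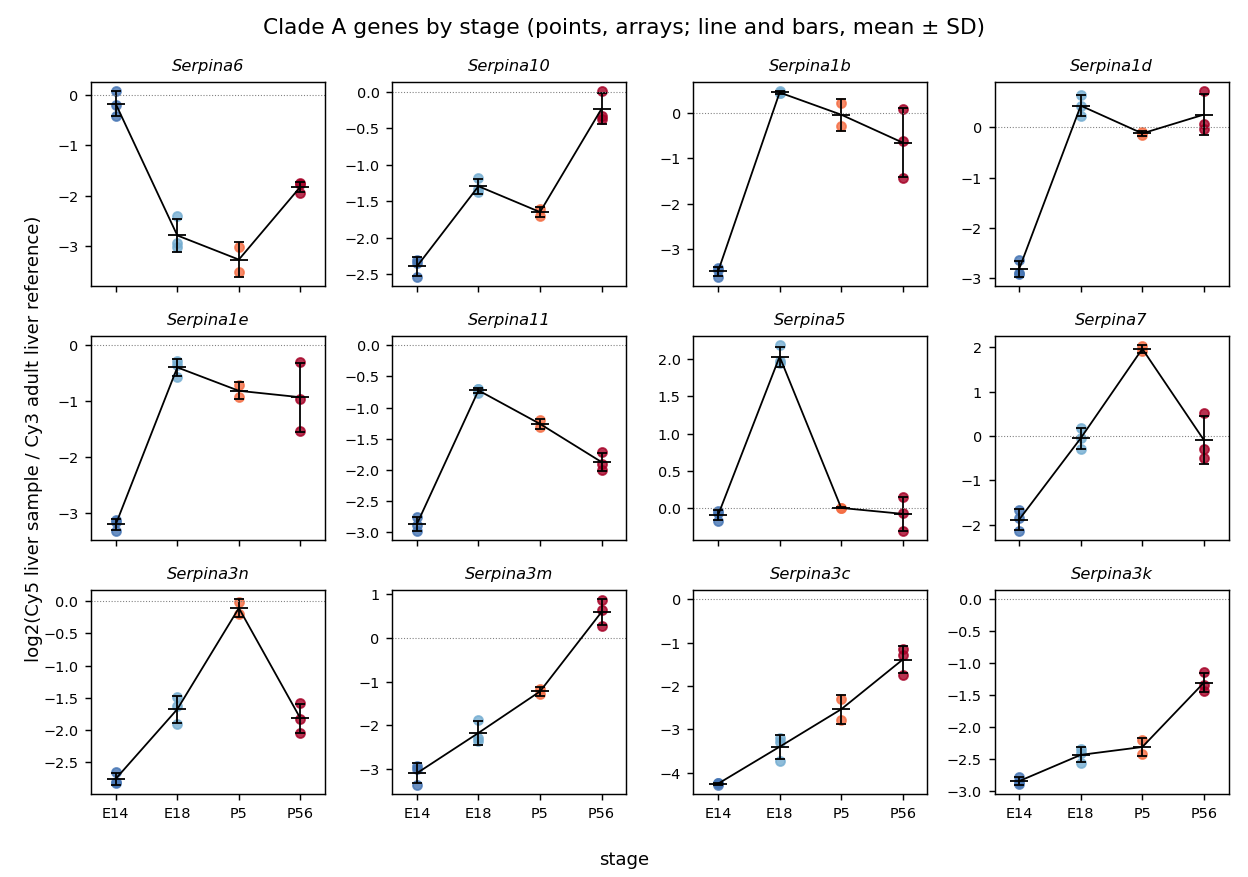
Log2(Cy5/Cy3) by stage for 12 clade A genes, with 1 point per array and a line through the stage means with SD bars (each panel has its own vertical scale). Serpina6 falls after E14, the 3 Serpina1 genes and Serpina11 reach their highest mean at E18, Serpina5 stands out at E18, Serpina7 and Serpina3n peak at P5, and Serpina3m, Serpina3c and Serpina3k are highest at P56.

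The Serpina3 cluster, mouse copies of the human antichymotrypsin gene, held genes with opposite courses after birth. Serpina3m measured -3.36, -2.99 and -2.93 at E14, -2.35, -2.29 and -1.87 at E18, -1.15 and -1.29 at P5, and 0.87, 0.29 and 0.64 at P56. It climbed at every step without overlap of neighbouring stages, and over the whole span it rose by 3.69 (12.9-fold, SE 0.17, limma adjusted p = 4.1e-09). The first step, E14 to E18, was 0.64 with median centring and did not pass there (limma adjusted p = 0.071). The middle step, E18 to P5, was 0.95 (limma adjusted p = 0.0085), turned to -0.47 with scaling between arrays, and did not pass with processed signals or in the authors' table. Its probe was saturated in Cy3 on 8 of 11 arrays and in Cy5 on 2 of the P56 arrays, which can compress its ratios.

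Serpina3c measured -4.28, -4.24 and -4.24 at E14, -3.72, -3.29 and -3.19 at E18, -2.77 and -2.30 at P5, and -1.14, -1.74 and -1.29 at P56. Its means too climbed at each step, by 2.86 in all (7.25-fold, SE 0.18, limma adjusted p = 4.3e-08), or by 1.67 with scaling between arrays (limma adjusted p = 0.14). With median centring the steps from E14 to E18 and from P5 to P56 were 0.70 and 0.60 and did not pass (limma adjusted p = 0.077 and 0.14). With scan as a fixed block the step from E14 to E18 was 0.53 (limma adjusted p = 0.066). Its step from E18 to P5 was 0.86 (limma adjusted p = 0.016), did not pass without P5 replicate 3, with median centring, with processed signals or in the authors' table, and was -1.55 with scaling between arrays. Serpina3k, the kallikrein-binding serpin, measured -2.77, -2.86 and -2.89 at E14, -2.56, -2.40 and -2.33 at E18, -2.41 and -2.21 at P5, and -1.34, -1.14 and -1.44 at P56. Most of its rise of 1.54 (2.90-fold, limma adjusted p = 1e-07) came after P5, where it rose by 1.00. A second Serpina3k probe, also bright, gave 5.52 from E14 to P56, so the size of this rise depends on the probe. The probe used was saturated in Cy3 on 3 arrays, which can compress its ratios, and the second probe on 0.

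Serpina3n encodes an acute-phase inhibitor of granzyme B and cathepsin G. It measured -2.65, -2.81 and -2.82 at E14, -1.91, -1.63 and -1.49 at E18, -0.20 and -0.01 at P5, and -1.59, -2.04 and -1.83 at P56. Whereas Serpina3m and Serpina3c had their highest means at P56, this gene had its highest at P5, and its P56 arrays overlapped those of E18. It rose by 1.08 (2.12-fold, limma adjusted p = 5.2e-05) and by 1.57 (2.97-fold, limma adjusted p = 8.1e-05), then fell by 1.72 (3.28-fold, SE 0.15, limma adjusted p = 4.6e-06), and the fall was 1.81 within the scan that held both stages. Serpina3g rose by 0.70 at each of the first 2 steps (adjusted p = 0.0043 and 0.028, limma) and differed by -0.46 from P5 to P56 (adjusted p = 0.061, limma). Serpina3f rose by 0.59 from E14 to E18 (limma adjusted p = 0.024), while its second probe gave 0.06.

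The pseudogene Serpina4-ps1 measured -0.89, -1.37 and -1.07 at E14, -0.87, -0.96 and -0.91 at E18, -1.41 and -0.42 at P5, and 0.06, 0.01 and 0.64 at P56. Only the P56 arrays stood apart, with a rise of 1.15 from P5 (2.22-fold, SE 0.26, limma adjusted p = 0.0036) that became 0.66 and did not pass without P5 replicate 2, and 0.59 with median centring (limma adjusted p = 0.061). The step from E14 to E18, 0.19 here, was 1.82 with processed signals and 2.09 in the authors' table, where it passed (limma adjusted p = 0.0036 and 0.0021). Its probe was not well above background at E14, so P56 was at least 2.56-fold higher than E14 in Cy5, with a ratio difference of 1.34 (limma adjusted p = 0.00026). Serpina9 rose by 0.41 at the same step (1.33-fold, limma adjusted p = 0.032).

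Among 18 genes of regulators of hepatocyte secretory proteins, such as Hnf4a and Cebpa, 16 were higher and 0 lower at E18 than at E14, with a median log2 fold change of 1.49. Beside 7 of 7 mature hepatocyte markers, 8 of 8 macrophage markers (array means -3.10 to -2.66 at E14 and -1.52 to -1.21 at E18), 5 of 6 endothelial markers and 5 of 6 lymphoid markers were also higher at E18, and the part of each in the rise of clade A was not tested.

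The clade B genes that changed most were the 3 Serpinb1 paralogs, whose human counterpart inhibits elastase, cathepsin G and proteinase 3 in neutrophils. Serpinb1a measured 0.18, -0.08 and 0.12 at E14, 2.13, 2.13 and 2.07 at E18, 1.30 and 1.58 at P5, and -0.94, -0.06 and 0.30 at P56. It was high around birth, at nearly the same value on all 3 E18 arrays, and back near the adult reference at P56. It rose by 2.04 from E14 to E18 (4.11-fold, SE 0.24, limma adjusted p = 2.7e-05) and fell by 1.68 from P5 to P56 (3.20-fold, SE 0.27, limma adjusted p = 0.00034).

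Serpinb1b measured 0.27, 0.06 and 0.36 at E14, 1.29, 1.20 and 1.39 at E18, 0.68 and 0.31 at P5, and -0.06, -0.05 and 0.11 at P56. Serpinb1c measured 0.16, 0.09 and 0.27 at E14, 1.31, 1.15 and 1.28 at E18, 0.82 and 0.51 at P5, and -0.13, -0.03 and 0.16 at P56. Both had the shape of Serpinb1a on a smaller scale, rising by 1.07 and 1.08 from E14 to E18 (2.09-fold and 2.11-fold, limma adjusted p = 2e-05 and 1.1e-05). Both fell from E18 to P5, by 0.80 and 0.58 (limma adjusted p = 0.0026 and 0.011), but this step did not hold for either gene in the authors' table (-0.04 and -0.16) or with processed signals (-0.67 and -0.42, limma adjusted p = 0.36 and 0.41). With scaling between arrays it was -0.37 and 0.01, and for Serpinb1c it did not pass without P5 replicate 3. In the authors' table the rise of Serpinb1b from E14 to E18 was 0.45 (limma adjusted p = 0.57). A second Serpinb1b probe was not well above background on any array and gave 0.04, -0.26 and 0.01 at E18. The second probe of Serpinb1c rose by 0.94 from E14 to E18. Whether the probes of Serpinb1b and Serpinb1c bind transcripts of Serpinb1a was not tested. Serpinb1b was not well above background on any P56 array, and in Cy5 P5 was at least 1.65-fold higher than P56, while the ratios differed by only -0.50 (limma adjusted p = 0.01), a step that did not pass without P5 replicate 2, with scan as a block or in the authors' table.

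The proteases that these inhibitors meet moved alongside. Ela2, the array's symbol for neutrophil elastase, rose by 2.00 from E14 to E18 and fell by 1.55 from P5 to P56, Ctsg, cathepsin G, by 3.15 and by 3.43, and Prtn3, proteinase 3, by 0.99 and by 0.82, all past the threshold by limma. In the list of neutrophil and myeloid precursor markers, which shares these 3 genes, 9 of 9 were higher at E18 than at E14 and 9 of 9 lower at P56 than at P5. The mean of that list was -0.22 to 0.11 at E14, 2.89 to 2.95 at E18, 2.06 to 2.44 at P5 and -1.97 to -1.41 at P56, and its part in the course of the Serpinb1 genes was not tested. Over all 19 target proteases tested, 16 were higher at E18 than at E14 and 1, Plat, was lower, while 1 was higher and 8 were lower at P56 than at P5.

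The remaining clade B genes showed smaller changes. Serpinb6a, an intracellular inhibitor of cathepsin G, measured -0.03, 0.06 and -0.12 at E14, 0.07, 0.39 and 0.36 at E18, 0.92 and 0.75 at P5, and -0.64, 0.05 and -0.11 at P56. It was highest in the newborn arrays and fell by 1.07 to P56 (2.10-fold, SE 0.18, limma adjusted p = 0.00052), or by 0.52 in the authors' table (limma adjusted p = 0.34). Serpinb6b fell by 0.50 from E14 to E18 and rose by 0.38 to P5 (limma adjusted p = 0.0012 and 0.038), and Serpinb6c fell by 0.56 from P5 to P56 (limma adjusted p = 0.03). Serpinb10, bomapin, a serpin of haematopoietic cells, and Serpinb2, plasminogen activator inhibitor 2, were not well above background at P56, and in Cy5 E14 was at least 2.18-fold and 1.67-fold higher, with ratio differences of -0.87 and -0.78 for P56 against E14 (limma adjusted p = 5.9e-05 and 0.00053). Serpinb3c was the 1 clade B gene higher at P56 than at E14, by 0.73 (1.66-fold, limma adjusted p = 3.4e-05). Serpinb3c, Serpinb6a and Serpinb10 each had another probe that was not well above background on any array.

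The genes of clades D, F and G shared an early rise. Serpind1, heparin cofactor 2, an inhibitor of thrombin, measured -2.33, -2.55 and -2.39 at E14, -0.94, -0.74 and -0.80 at E18, -0.59 and -0.74 at P5, and -0.75, -1.34 and -1.08 at P56. It rose by 1.59 from E14 to E18 (3.02-fold, SE 0.14, limma adjusted p = 2.3e-06), while the later steps were 0.16 and -0.39 (limma adjusted p = 0.53 and 0.056).

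Serping1, the C1 inhibitor of complement and the contact system, had no value on E14 replicate 3. It measured -2.92 and -3.07 on the other E14 arrays, -1.63, -1.69 and -1.38 at E18, -1.61 and -1.56 at P5, and -1.46, -2.05 and -1.79 at P56. It rose by 1.43 from E14 to E18 (2.69-fold, SE 0.16, limma adjusted p = 3.7e-05) while the later steps were -0.02 and -0.18 (limma adjusted p = 0.96 and 0.39). Its targets C1r and C1s rose by 2.69 and 2.70 in the same step, and Klkb1, plasma kallikrein, by 2.82, each with a limma adjusted p of at most 2.7e-07.

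Serpinf1 encodes PEDF, a secreted serpin that does not inhibit proteases. It measured -2.79, -2.96 and -2.69 at E14, -0.24, -0.39 and -0.46 at E18, -0.31 and -0.63 at P5, and -0.45, -1.02 and -1.02 at P56. Its E14 arrays stood alone at the bottom, and the rise to E18 was 2.45 (5.46-fold, SE 0.16, limma adjusted p = 1.8e-07), with 1.84 from its second probe. Serpinf2, its neighbour on chromosome 11, encodes alpha-2-antiplasmin, the main inhibitor of plasmin. It measured -1.52, -1.78 and -1.44 at E14, 0.67, 0.55 and 0.54 at E18, 0.06 and -0.31 at P5, and -1.08, -1.97 and -1.45 at P56.

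Serpinf2 was high at E18 and low again at P56, where it differed from E14 by 0.08 (limma adjusted p = 0.73). It rose by 2.17 (4.49-fold, SE 0.19, limma adjusted p = 2.8e-06) and fell by 1.38 from P5 to P56 (2.60-fold, SE 0.21, limma adjusted p = 0.0003), while the step from E18 to P5, -0.71, lay at the threshold (limma adjusted p = 0.048) and did not pass when any one of 8 arrays was left out. Plg, the gene of plasminogen, rose by 3.19 from E14 to E18 and fell by 1.41 from P5 to P56 (limma adjusted p = 7.5e-08 and 0.00018).

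Serpinh1 encodes HSP47, the chaperone of collagen in the endoplasmic reticulum, which inhibits no protease. It measured 2.51, 2.81 and 2.35 at E14, 1.18, 1.24 and 1.07 at E18, 0.78 and 0.63 at P5, and -0.09, 0.43 and -0.40 at P56. It declined from the highest to the lowest stage without overlap between neighbouring stages, and its highest mean lay at E14, where 15 of 16 clade A genes had their lowest. It fell by 1.39 from E14 to E18 (2.62-fold, SE 0.18, limma adjusted p = 6.7e-05) and by 2.57 over the whole span (5.96-fold, SE 0.18, limma adjusted p = 1.2e-07). The step from E18 to P5 was -0.46 and did not pass (limma adjusted p = 0.16). The fall of 0.72 from P5 to P56 (limma adjusted p = 0.013) did not pass without P5 replicate 2, with scan as a block or in the authors' table.

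Of 17 collagen genes and collagen-modifying enzymes, 6 were higher and 2 lower at E18 than at E14, and 12 were lower and 2 higher at P56 than at E14. Col1a1 fell by 3.51 and Col1a2 by 2.88 from E14 to P56, and their steps from E14 to E18 were -0.06 (limma adjusted p = 0.85) and -0.58 (limma adjusted p = 0.01). The mean of 7 stellate and fibroblast markers, which include these collagen genes, was -0.20 to 0.11 at E14, 0.04 to 0.10 at E18, -0.14 to 0.18 at P5 and -1.31 to -0.99 at P56, and its part in the course of Serpinh1 was not tested.

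The last 3 genes were dim. Serpine2, protease nexin 1, was not well above background on any P5 or P56 array, and in Cy5 E14 was at least 1.51-fold higher than P56, with a ratio difference of -0.57 for P56 against E14 (limma adjusted p = 0.0027). Serpine2 passed the filter through E14 alone, so this adjusted p is not separate support for a high level there. Serpini1, neuroserpin, was well above background on both P5 arrays, 1 E14 array and no E18 array, and in Cy5 E14 was at least 1.23-fold higher than E18 (limma adjusted p = 0.014). Serpini2 rose by 0.72 from E18 to P5 (1.65-fold, SE 0.18, limma adjusted p = 0.02) and was not well above background on any E14 or P56 array.

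**Figure D4:**
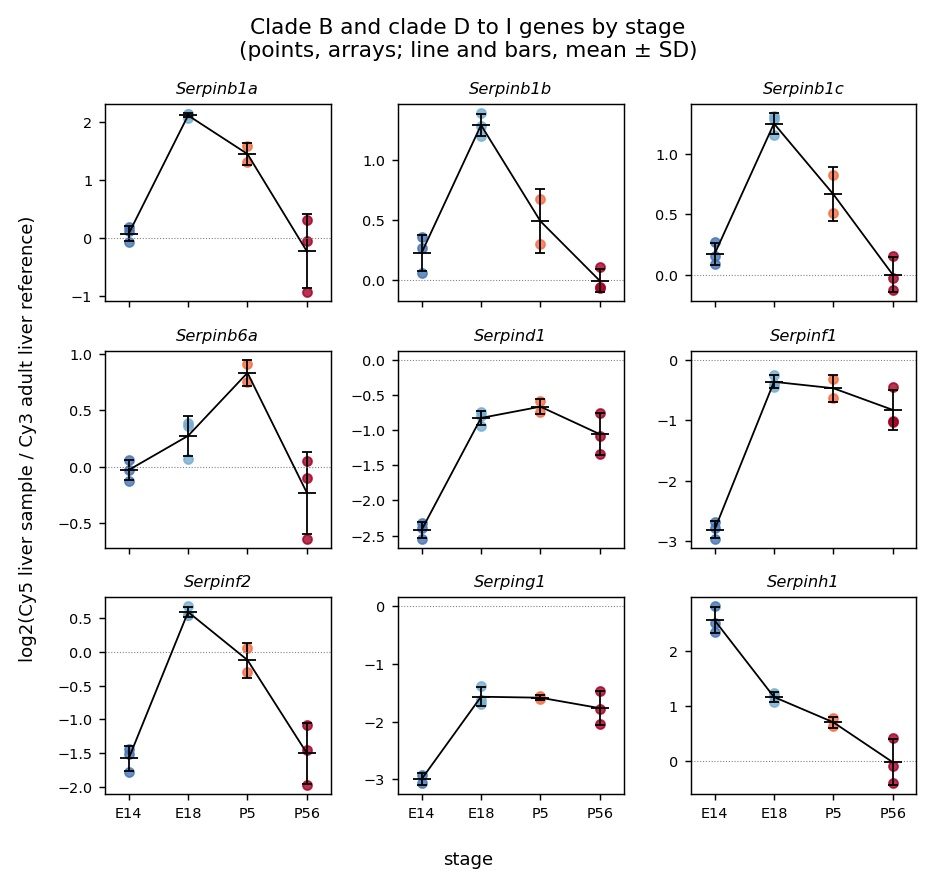
Log2(Cy5/Cy3) by stage for 4 genes of clade B and 5 genes of clades D to I, with 1 point per array and a line through the stage means with SD bars (each panel has its own vertical scale). The Serpinb1 genes are highest at E18, Serpind1, Serpinf1 and Serping1 are lowest at E14, and the mean of Serpinh1 declines at every step.

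The stage at which a gene had its highest mean summarises these courses. In clade A it was E14 for 1 gene, E18 for 5, P5 for 3 and P56 for 7, and the lowest mean lay at E14 for 15 of 16 genes. In clade B the highest mean lay at E18 for 4 of 9 genes and the lowest at P56 for 7. In clades D to I the highest mean lay at E14 for 3 genes, at E18 for 4, at P5 for 2 and at P56 for 0. The range of the 4 stage means had a median of 2.41 in clade A, 0.91 in clade B and 1.75 in clades D to I, on the log2 scale. These ranges belong to the main fit. Most clade A probes used were brighter than the brightest clade B probe, and the part of brightness in this contrast was not tested. The clade B median for P56 against P5 was -0.50 in the main fit and -0.309 with scan as a fixed block. It was -1.99 with processed signals and -1.13 in the authors' table. Along chromosome 12 Serpina1b, Serpina1d, Serpina1e and Serpina11, whose highest mean was at E18, lay side by side. The 6 tested genes from Serpina3c to Serpina3n were highest at P5 or P56, as were most clade A genes. For the Serpina1 genes the step from E18 to P5 did not pass (limma adjusted p = 0.34, 0.095 and 0.32). Whether neighbours share a highest stage more often than other genes was not tested.

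For 8 of the tested genes a second probe also passed the filter. The 2 probes gave the same direction for 8 of 8 genes from E14 to E18, 7 of 8 from E18 to P5, 7 of 8 from P5 to P56 and 8 of 8 from E14 to P56. They differed most in size for Serpina3k and Serpina5. The parts of saturation and of cross-hybridisation between paralogs in these differences were not tested. Further probes of Serpinb1b, Serpinb3c, Serpinb6a and Serpinb10 were not well above background on any array and are not in these counts.

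**Figure D5:**
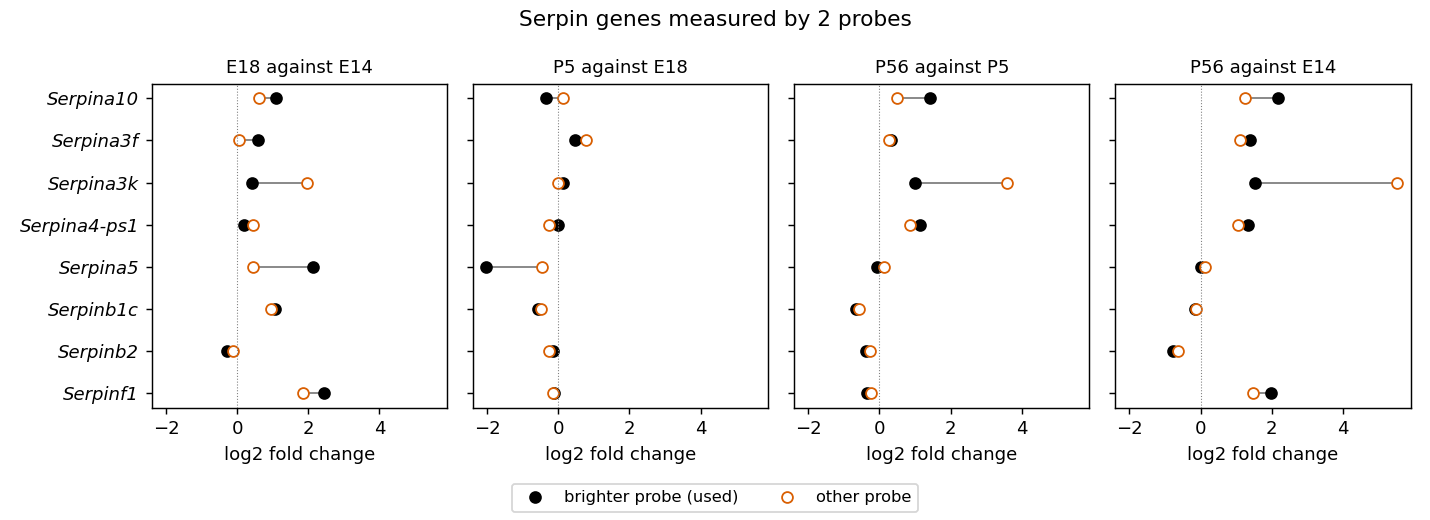
Log2 fold change (horizontal axis) in 4 comparisons of stages for the 8 serpin genes with 2 probes that passed the filter, the brighter probe in black and the other in orange, joined by a line. The lines are long for Serpina3k, where the other probe gave the larger rise, and for Serpina5, where it gave the smaller change.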

How the data were processed

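RNA from 11 liver samples was hybridised on Agilent 4x44k arrays with Cy5 for the sample and Cy3 for the reference, without dye swaps. The authors deposited spot intensity values per channel from Feature Extraction 9.5.1.1 and a table of normalized log2 ratios per gene, used as an alternative only. The log10 ratios in the deposited scanner files were not used. Mean signals were corrected with normexp (offset 50) and normalized by loess within arrays in limma 3.58.1 (R 4.3.3), without scaling between arrays. Control spots and outlier spots (177 to 356 per array) were left out, and spots of a probe were averaged. The brightest kept probe stood for a gene, and a gene could lack 1 value per stage. Stages were fitted over all 11 arrays with lmFit and eBayes and Benjamini-Hochberg adjustment over 16695 genes, at a threshold of 0.05, and the fit was tested on simulated data. Where a probe was well above background on no array of a stage, folds are bounds computed in Cy5. A probe above background on only some arrays of a stage keeps its plain fold. With 2 or 3 arrays per stage the precision is limited, and replicate spread may be technical in part.

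Array by array values are given for serpins past the threshold with a log2 fold change of at least 1 and no overlap between neighbouring stages, and for Serpina6. The members and gene lists were chosen with earlier results of these data known. Symbols are those of the array design, of which 48 of 53 matched RefSeq (GRCm38.p6) by accession. Probe coordinates are mm7, as deposited. Upstream sequences are from RefSeq. Some family members are not reported here. Alternatives were other background corrections, normalizations, filters and probe choices, the authors' table, Cy5 alone, replicate number or scan as a block, the methods' t-test, and each array left out. Same-numbered arrays did not deviate together (r of -0.304 to 0.188 over 15 pairs), so the numbers were not taken as pairs. Figures were drawn with matplotlib 3.10.9.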

Additional observations from a re-analysis of the deposited data

How the results depend on the processing

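For single genes under settings other than leaving out an array, 1090 results kept their direction and side of the threshold, 93 lost a call, 27 gained one and 4 turned sign, and with an array left out 986 were kept, 13 lost and 13 gained. All 4 that turned did so with scaling between arrays. They were Serpina11 from P5 to P56 (0.075) and, from E18 to P5, Serpina3c (-1.553), Serpina3m (-0.473) and Serpinb1c (0.011). Causes of the changes below were not tested unless named.

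For E18 against E14, the clade A median was 0.877 with Cy5 alone, 0.853 with median centring, 0.669 with scaling, 0.796 with scan as a fixed block, 1.29 with processed signals and 1.28 in the authors' table. The clade B median was 0.085 with Cy5 alone and 0.450 in the authors' table. The count higher was 9 with scaling. The count lower was 2 with scaling and 3 each with scan as a fixed block, processed signals or probes well above background on all arrays.

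For P5 against E18, the clade A median was -0.079 with Cy5 alone, -0.082 without background correction, -1.08 with scaling, -0.071 with processed signals, -0.077 in the authors' table and -0.116 with probes well above background on all arrays. The clade B median was 0.228 with scaling, -0.268 with processed signals, 0.114 in the authors' table and 0.264 with probes well above background on all arrays. The count higher was 0 with scaling, 2 with processed signals, 2 in the authors' table and 0 by the methods' t-test. The count lower was 3 with Cy5 alone, 3 with median centring, 1 with scaling, 1 with processed signals, 1 in the authors' table, 0 by the methods' t-test and 2 with probes well above background on all arrays.

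For P56 against P5, the clade A median was 0.148 with Cy5 alone, 0.055 with median centring, 0.796 with scaling, 0.123 with scan as a fixed block and -0.0085 with processed signals. The clade B median was -0.716 with Cy5 alone, -0.741 with median centring, -0.790 without background correction, -0.635 with scaling, -0.309 with scan as a fixed block, -1.99 with processed signals and -1.13 in the authors' table. The count higher was 4 with median centring and 0 by the methods' t-test. The count lower was 19 with median centring, 17 with processed signals and 0 by the t-test. At an unadjusted p under 0.05 the methods' t-test called 17 serpins from E18 to P5 and 13 from P5 to P56. No share of all genes under that test is given beside these counts. Median centring moved the median of all genes to -0.47 from P5 to P56 and to -0.33 from E14 to P56.

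For P56 against E14, the clade A median was 1.21 with Cy5 alone, 0.971 with median centring, 1.62 without background correction, 0.917 with scaling, 2.10 with processed signals, 2.29 in the authors' table and 1.85 with probes well above background on all arrays. The clade B median was -0.662 with median centring and -0.776 with processed signals. The count higher was 7 with scaling, and the count lower was 10 with median centring and 2 with probes well above background on all arrays. With that last filter 21 serpins differed over the 4 stages, of the 22 it left to test.

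With each array left out in turn, the clade A median ranged over 0.879 to 1.08, -0.142 to 0.247, 0.123 to 0.486 and 1.43 to 1.51 in these 4 comparisons, and the clade B median over 0.248 to 0.336, -0.403 to 0.129, -0.684 to -0.309 and -0.332 to -0.104. Counts higher ranged over 20 to 23, 3 to 8, 5 to 8 and 19 to 19, counts lower over 3 to 5, 3 to 7, 7 to 13 and 5 to 7, and the count over the 4 stages over 32 to 34.

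With the replicate block, 22, 5, 7 and 19 serpins were higher and 5, 4, 10 and 6 lower. Of the 15 same-numbered pairs 1 correlated above 0.1, so the arrays share only a number. Signal over background limits the dim serpins, for which the text gives bounds in Cy5 beside the ratios.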
